A study of Mus musculus with 16 samples.

Results

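Osteopontin, its receptor CD44 and the integrin chains of leukocytes were followed through gonadal white adipose tissue (gWAT) as 9 genes chosen by name: *Spp1*, *Cd44*, *Itgax*, *Itgam*, *Itgal*, *Itgb2*, *Itgav*, *Itgb1* and *Itga4*. All 9 are among the 19373 genes of the expression table, on 10 rows because the name *Itgam* stands on a pair of rows, and 8 of them reached 1 FPKM in 4 or more mice and entered the tests. FPKM are fragment numbers corrected for transcript length and for the size of the library. RNA came from male C57BL/6J mice, 1 library per mouse, in 4 groups of 4: *Mboat7* flox/flox control mice on chow, *Mboat7* ASKO mice on chow, control mice on a high-fat diet (HFD) and *Mboat7* ASKO mice on HFD, each after 20 weeks of diet. All mice carried the floxed *Mboat7* allele, and *Mboat7* ASKO mice also carried a Cre recombinase driven by the adiponectin promoter, which acts in adipocytes, so that macrophages and the other cells of the fat pad keep *Mboat7*. The mice were age-matched, fasted for a few hours and perfused with saline to clear blood from the tissue, and their age is not given in the sources used here.

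Osteopontin is a secreted, acidic phosphoprotein of the extracellular matrix that acts on cells through CD44 and through integrins. An integrin is a pair of 1 α chain and 1 β chain: the β2 chain (*Itgb2*) is made only by leukocytes and pairs with the α chains CD11a (*Itgal*), CD11b (*Itgam*), CD11c (*Itgax*) and CD11d (*Itgad*), whereas the β1 chain (*Itgb1*) is made by nearly all cells and the αv (*Itgav*) and α4 (*Itga4*) chains bind matrix proteins and vascular ligands. In obese fat, macrophages gather around dying adipocytes, and CD11c is the surface marker most often used for the macrophages that appear there.

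*Mboat7* itself was listed at 2.42, 4.33, 0.902 and 4.99 FPKM in the control mice and at 0, 1.39, 0 and 2.89 FPKM in the *Mboat7* ASKO mice on chow, a log2 difference of -1.12 (exact permutation test, two-sided, p = 0.143). The HFD mice had 0, 0, 2.15 and 1.61 FPKM as controls and 1.14, 0, 2.6 and 0 FPKM as *Mboat7* ASKO. Their log2 difference was -0.02 (exact permutation test, two-sided, p = 1). Values of at most 2.6 FPKM are too low for this test to show a deletion, so the genotype of these libraries rests on their labels. In gWAT the paper reports less MBOAT7 protein on chow, and less of the main lipid product of the enzyme on both diets. The deposited row of *Mboat7* ends at 3701024, and the gene ends at 3693523 in GENCODE M21, with exons that overlap *Tsen34* on the opposite strand. The tissue was adipose by its markers, with *Adipoq* between 318 and 1870 FPKM and *Plin1* between 37.2 and 141 FPKM over all mice. The table holds no counts. Low values of 1475 genes with 1 transcript each lay nearer to whole steps than evenly spread values would, and a step on a transcript of 1 kb was worth between 2.45 and 4.34 FPKM, which taken as 1 fragment gives between 230000 and 408000 fragments per mouse. Between 47.7% and 78.0% of such values were within 0.2 of a whole step, against 40% for an even spread, so these depths are estimates. The RNA *AY036118* took between 9.61% and 32.6% of the FPKM sum, and the highest shares were in control mouse 1 and *Mboat7* ASKO mouse 3 on HFD.

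*Spp1*, the gene of osteopontin, was listed at 0 in 6 of 8 mice on chow and above 0 in every mouse on HFD. The control mice had 2.44, 0, 0 and 0 FPKM on chow and 7.42, 5.18, 4.48 and 7.87 FPKM on HFD. The *Mboat7* ASKO mice had 6.44, 0, 0 and 0 FPKM on chow and 23.4, 18.6, 21.4 and 17.4 FPKM on HFD. In both genotypes the lowest HFD mouse was above the highest chow mouse, and on HFD the lowest *Mboat7* ASKO mouse was above the highest control mouse. *Spp1* rose with HFD by 3.67 on the log2(FPKM + 1) scale in *Mboat7* ASKO mice (standard error 0.62, limma adjusted p = 0.00243) and by 2.38 in control mice (standard error 0.62, limma adjusted p = 0.0483). The call in control mice was held by a thin margin: it was lost when 13 of the 16 mice were left out 1 at a time, with adjusted p between 0.00776 and 0.132. On this scale the change of weakly expressed genes is compressed, and a pseudocount of 0.1 gave 6.15 and 4.78 for *Spp1* in the same order, and 7.86 and 6.47 for *Itgax*. In tissue RNA, a larger number of cells of a type and more RNA per cell cannot be told apart, here and for every gene that follows.

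Between genotypes on HFD, mean *Spp1* was 20.2 ± 2.72 FPKM in the ASKO group and 6.24 ± 1.66 FPKM in the control group (SD, n = 4), a ratio of 3.24. The log2 fold change was 1.57 (95% interval 0.26 to 2.89), which did not pass the test over all genes (limma, unadjusted p = 0.0221, adjusted p = 0.901). On chow the difference between genotypes was 0.28 (limma adjusted p = 0.996), and the diet response differed between genotypes by 1.29 (limma interaction, adjusted p = 0.845). Divided by those steps, the HFD values of *Spp1* stand for about 1.9 to 4.3 fragments in control mice and 8.7 to 12 fragments in *Mboat7* ASKO mice, so each value carries a large counting error.

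*Spp1* (ENSMUSG00000029304.14) lies on the plus strand of chromosome 5 in mm10, from 104435118 to 104441050, and its exons overlap those of *Gm42793* on the same strand. Integrins with the αv chain bind osteopontin at an arginine-glycine-aspartate motif, and α4 integrins bind a stretch next to it. The stretch of its 1410-base GENCODE transcript that encodes it is shown because this motif joins the ligand to the αv chain described further on. It lies in exon 6 of 7, on the plus strand at chr5:104439457-104439516 (GENCODE M21, GRCm38), and the capitals mark the codons of the motif, of which the first is codon 144.
Spp1 motif: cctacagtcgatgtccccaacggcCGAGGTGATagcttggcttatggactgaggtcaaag

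*Cd44*, which encodes the surface receptor that binds both hyaluronan and osteopontin, also rose with HFD in both genotypes. On chow it had 5.95, 3.32, 0.552 and 0.48 FPKM in control mice and 2.46, 3.07, 4.09 and 1.0 FPKM in *Mboat7* ASKO mice. On HFD it had 13.0, 29.3, 18.7 and 16.5 FPKM in control mice and 44.2, 60.9, 29.0 and 38.2 FPKM in *Mboat7* ASKO mice. Every HFD mouse was above every chow mouse, while control mouse 1 on HFD, at 29.3 FPKM, reached just into the range of the *Mboat7* ASKO mice, whose lowest value was 29.0 FPKM. *Cd44* rose with HFD by 2.76 in control mice (standard error 0.51, limma adjusted p = 0.00487) and by 3.62 in *Mboat7* ASKO mice (standard error 0.51, limma adjusted p = 0.000457), which are ratios of mean FPKM of 7.52 and 16.2. On HFD the means were 43.1 and 19.4 FPKM, a ratio of 2.22 in favour of *Mboat7* ASKO mice, and the log2 difference of 1.12 (95% interval 0.05 to 2.19) did not pass the test (limma adjusted p = 0.946). *Cd44* (ENSMUSG00000005087.17) lies on the minus strand of chromosome 2, from 102811141 to 102901665.

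**Figure D1:**
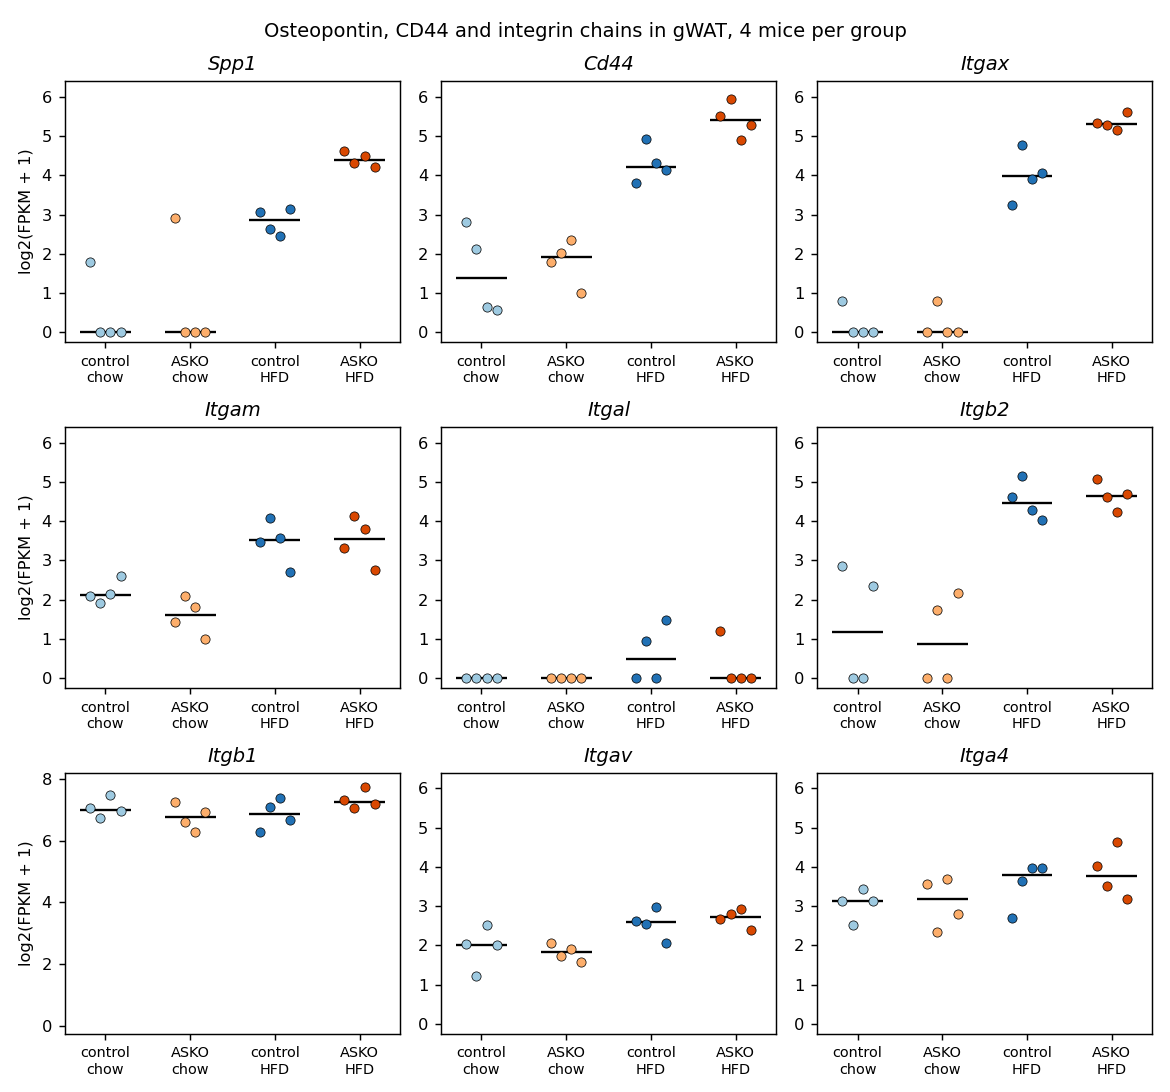
Levels of the 9 genes in each mouse, as log2(FPKM + 1), with 1 point per mouse and a line at the group median; the panel of *Itgb1* has a wider axis. *Spp1*, *Cd44*, *Itgax* and *Itgb2* stand higher on HFD than on chow in both genotypes, *Spp1* and *Itgax* separate the genotypes on HFD, and *Itgb1*, *Itgav* and *Itga4* passed no test.

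Of the leukocyte α chains, *Itgax* changed most. The genes of the CD11 chains lie on the plus strand of chromosome 7 in mm10, *Itgal* from 127296260 to 127335138, *Itgam* from 128062640 to 128118491, *Itgax* from 128129547 to 128150657 and *Itgad* from 128154376 to 128223816 (GENCODE M21). *Itgax* was listed at 0.723, 0, 0 and 0 FPKM in control mice and at 0, 0.741, 0 and 0 FPKM in *Mboat7* ASKO mice on chow. On HFD it reached 8.51, 26.3, 14.0 and 15.6 FPKM in control mice and 39.2, 37.8, 34.6 and 47.4 FPKM in *Mboat7* ASKO mice. *Itgax* entered the tests through the 8 HFD mice, since no chow mouse reached 1 FPKM. No HFD value was near the chow values, and no *Mboat7* ASKO mouse on HFD was within the range of the control mice on HFD. The rise with HFD was 3.80 in control mice (standard error 0.41, limma adjusted p = 5.84e-05) and 5.14 in *Mboat7* ASKO mice (standard error 0.41, limma adjusted p = 1.41e-06), and both calls held under each of the 10 alternative settings and without any 1 mouse.

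On HFD, *Itgax* averaged 39.7 ± 5.48 FPKM in the ASKO group and 16.1 ± 7.46 FPKM in the control group (SD, n = 4), a ratio of means of 2.47. The log2 difference was 1.34 (95% interval 0.47 to 2.22, limma unadjusted p = 0.00481), and it did not pass after adjustment over 13148 genes (adjusted p = 0.824). The diet response was larger in *Mboat7* ASKO mice by 1.34 (95% interval 0.10 to 2.58, limma interaction, unadjusted p = 0.0353), and this did not pass either (adjusted p = 0.757). On chow the genotypes differed by 0.00 in *Itgax* (95% interval -0.87 to 0.88), with 6 of 8 mice listed at 0. From this RNA the paper, by its own test, names *Itgax* and *Cd68* among macrophage genes higher in *Mboat7* ASKO mice on HFD. Neither passed here. By flow cytometry after a shorter time on HFD, it reports fewer macrophages with both CD11c and CD206 in that genotype, and more with CD206 alone. Those are shares of cells and not tissue RNA.

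*Itgam*, which encodes CD11b and marks macrophages, monocytes and neutrophils, was higher on HFD in both genotypes, and the difference between their diet responses did not pass (0.65, limma interaction, 95% interval -0.63 to 1.94, adjusted p = 0.893). It had 3.27, 2.76, 3.44 and 5.07 FPKM in control mice and 1.69, 3.26, 2.5 and 1.0 FPKM in *Mboat7* ASKO mice on chow, and 9.98, 15.8, 10.9 and 5.54 FPKM and 8.92, 16.6, 12.9 and 5.75 FPKM in the same order on HFD. The HFD mice stood above the chow mice in both genotypes, and on HFD the genotypes covered the same range. *Itgam* rose with HFD in *Mboat7* ASKO mice (1.92, standard error 0.43, limma adjusted p = 0.0181), and its difference of 1.26 in control mice did not pass (limma adjusted p = 0.152). The call in *Mboat7* ASKO mice was lost without chow mouse 3 (limma adjusted p = 0.0595), HFD mouse 1 (adjusted p = 0.0707) or HFD mouse 2 (adjusted p = 0.0587) of that genotype. Between genotypes on HFD the log2 difference was 0.05 (95% interval -0.86 to 0.96).

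*Itgal* (CD11a), the α chain of the lymphocyte integrin LFA-1, was listed at 0 in all 8 chow mice. On HFD it was at 0, 0.941, 0 and 1.76 FPKM in control mice and at 1.28, 0, 0 and 0 FPKM in *Mboat7* ASKO mice, so it was above 0 in 3 mice and was not tested. Their shared partner *Itgb2* (chromosome 10 from 77530252 to 77565708, plus strand) had 6.27, 0, 0 and 4.07 FPKM in control mice and 0, 2.34, 0 and 3.55 FPKM in *Mboat7* ASKO mice on chow. On HFD it had 23.5, 34.7, 18.6 and 15.3 FPKM and 32.6, 23.5, 17.6 and 24.7 FPKM in the same order, above every chow mouse and with the genotypes overlapping. *Itgb2* rose by 3.22 in control mice (limma adjusted p = 0.0121) and by 3.67 in *Mboat7* ASKO mice (limma adjusted p = 0.00437), and differed by 0.12 between genotypes on HFD (95% interval -1.29 to 1.54). The call in control mice was lost with a pseudocount of 0.1 (adjusted p = 0.0846) and without control mouse 1 and *Mboat7* ASKO mouse 3 on HFD together (adjusted p = 0.0647).

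Because all 4 α chains pair with the same β chain, their FPKM were also read as shares of their sum in each mouse. On chow the sum was between 1.0 and 5.07 FPKM, and *Itgam* made up 81.5% to 100% of it in every mouse. These chow shares rest on few fragments, about 1.6 to 8.4 of *Itgam* and at most 0.92 of *Itgax* per mouse. A share of 100% on chow can therefore stand for other chains below detection. On HFD the sum was 18.5 to 44.0 FPKM in control mice and 49.2 to 56.4 FPKM in *Mboat7* ASKO mice. *Itgax* made up 46.0%, 59.9%, 49.3% and 65.4% of it in control mice and 79.3%, 66.9%, 70.3% and 89.2% in *Mboat7* ASKO mice, with medians of 54.6% and 74.8% and no overlap. *Itgam* had the largest share in every chow mouse, and *Itgax* had the largest share in 3 of 4 control mice and in all 4 *Mboat7* ASKO mice on HFD. These are shares of messenger RNA per length, not of protein. They follow from the values of the single chains and are not separate evidence, and how often such shares separate the genotypes was not tested. *Itgad* was listed at 0 in every chow mouse and took at most 12.4% in an HFD mouse.

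**Figure D2:**
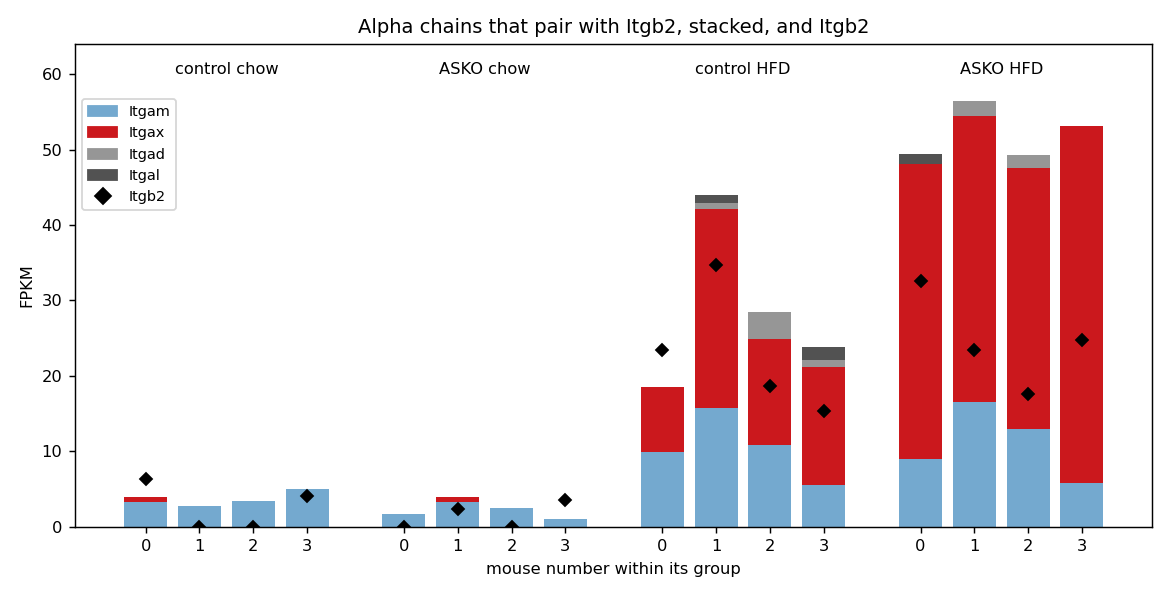
FPKM of the α chains that pair with β2, stacked for each mouse, with the FPKM of *Itgb2* as a diamond. The bars of the *Mboat7* ASKO mice on HFD end between 49.2 and 56.4 FPKM and are mostly *Itgax*, while the *Itgam* part is of like height in both genotypes on HFD.

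*Itgb1* (chromosome 8 from 128685654 to 128733200, plus strand), *Itgav* (chromosome 2 from 83724397 to 83806916, plus strand) and *Itga4* (chromosome 2 from 79255426 to 79333123, plus strand), the chains that non-leukocytes also use, did not pass the test in any comparison. *Itgb1* was at 105 to 174 FPKM in control mice and 77.0 to 151 FPKM in *Mboat7* ASKO mice on chow, and at 77.4, 135, 167 and 101 FPKM and 157, 134, 210 and 144 FPKM on HFD. Its diet difference was -0.19 in control mice (95% interval -0.80 to 0.42) and 0.56 in *Mboat7* ASKO mice (95% interval -0.05 to 1.17). The first of these turned to 0.00 or just above without control mouse 0 on HFD, which had the lowest value of its group.

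*Itgav*, the α chain that binds osteopontin and vitronectin with several β chains, had 3.1, 1.34, 4.73 and 3.0 FPKM in control mice and 3.18, 2.34, 2.73 and 1.97 FPKM in *Mboat7* ASKO mice on chow. On HFD it had 5.17, 4.84, 6.87 and 3.15 FPKM and 5.33, 6.02, 6.59 and 4.23 FPKM. The *Mboat7* ASKO mice did not overlap between diets, and the control mice did, with differences of 0.88 (limma adjusted p = 0.306) and 0.60 (limma adjusted p = 0.55). *Itga4*, the α chain of the integrin VLA-4 that binds VCAM-1, fibronectin and osteopontin, ranged from 4.07 to 12 FPKM on chow and from 5.46 to 23.8 FPKM on HFD, with overlap between diets in both genotypes and differences of 0.52 and 0.73 (limma adjusted p = 0.679 and 0.48). The annotated exons of *Itgav* overlap *Gm13684* and those of *Itga4* overlap *Cerkl*, both on the opposite strand, and whether strand was used in the counting is not given in the sources used here. The deposited row of *Itga4* runs from 79255500 to 79428891, well past the end of the gene in GENCODE M21.

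**Figure D3:**
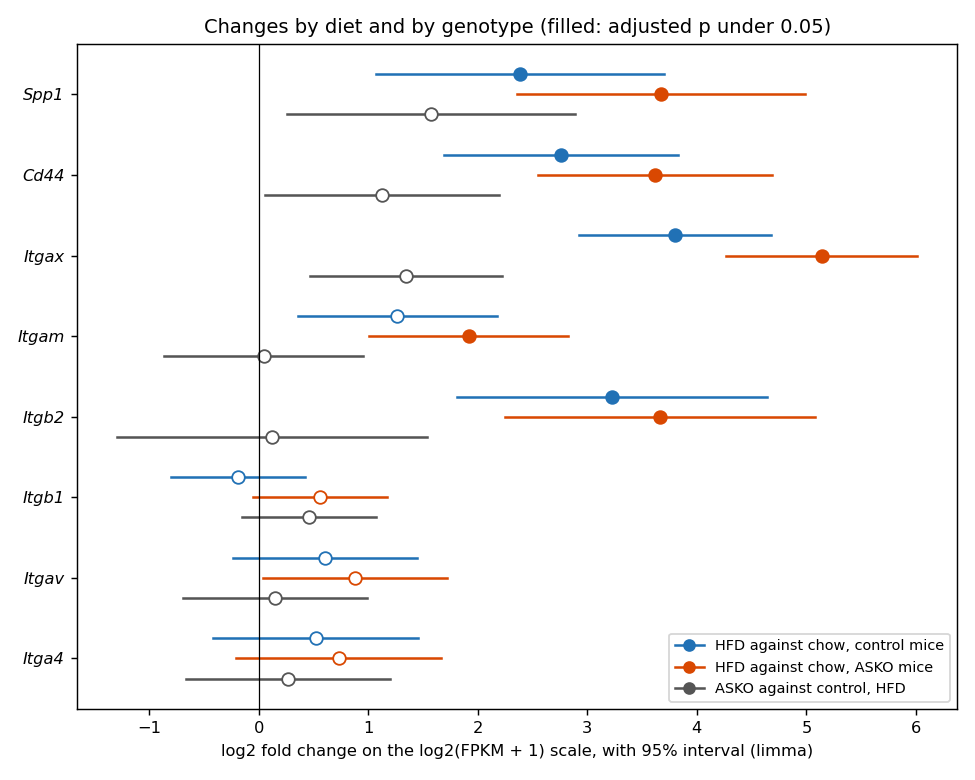
Log2 fold changes of the 8 tested genes on the log2(FPKM + 1) scale with 95% intervals from limma, for HFD against chow in each genotype and for *Mboat7* ASKO against control mice on HFD; filled points passed an adjusted p of 0.05. *Itgax* has the largest diet change in both genotypes, 3.80 and 5.14, and no genotype point is filled.

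Over the 8 tested genes, 4 rose with HFD in control mice (*Spp1*, *Cd44*, *Itgax* and *Itgb2*), against 1.81% of all 13148 genes, and 5 rose in *Mboat7* ASKO mice (the same 4 and *Itgam*), against 2.13% of all genes. None fell, against 1.1% and 1.3% of all genes. The median log2 fold change of the 8 was 1.82 and 2.77, beside 0.00 and 0.03 for all tested genes. The groups did not overlap for 5 of the 8 in control mice, where 4.45% of all genes stood higher on HFD in this way, and for 6 of the 8 in *Mboat7* ASKO mice, where 5.18% did. These genes and the gene lists were chosen with earlier results of these data known. The percentages of all genes, here and further on, are therefore descriptive and no test of enrichment. *Spp1* and *Itgax* also needed their HFD mice to enter the tests. On chow, *Spp1* reached 1 FPKM in 1 mouse of each genotype and *Itgax* in none. Without control mouse 1 and *Mboat7* ASKO mouse 3 on HFD, the mice with the highest share of *AY036118*, *Cd44* and *Itgax* were the 2 of 8 that passed in control mice (*Spp1* limma adjusted p = 0.118, *Itgb2* adjusted p = 0.0647), and the same 5 passed in *Mboat7* ASKO mice.

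Between genotypes on HFD, none of the 8 passed, and 0% of all genes passed as higher in *Mboat7* ASKO mice while 0.00761% passed as lower. By limma, 677 of the 13148 genes had an unadjusted p under 0.05. All 8 estimates were above 0, with a median of 0.36 beside 0.02 for all tested genes, but those of *Itgam*, *Itgb2*, *Itgav* and *Itga4* were below 0 when single mice were left out. *Spp1* and *Itgax* were the 2 of 8 without overlap, against 1.69% of all genes, and without both mice just named their differences were 1.57 and 1.52. On chow none of the 8 passed by limma, where 0.00761% of all genes passed as higher and 0% as lower and 631 had an unadjusted p under 0.05. There the median of the 8 was -0.06, 4 were above 0 and none was free of overlap, against 1.06% of all genes higher and 1.13% lower in *Mboat7* ASKO mice. The comparison of genotypes on HFD shares its mice with both diet comparisons, so these values are not separate evidence.

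Per unit of length, *Itgb1* was the most abundant of the 9 genes in each group, with medians of 127 and 108 FPKM on chow and 118 and 150 FPKM on HFD in control and *Mboat7* ASKO mice, and its lowest value of 77.0 FPKM was above the highest value of any other of these genes, 60.9 FPKM. On chow *Itga4* came next, with medians of 7.72 and 8.44 FPKM, and *Spp1*, *Itgax* and *Itgal* were last with medians of 0. On HFD the control mice ran from *Itgb2* (21 FPKM) through *Cd44* (17.6), *Itgax* (14.8), *Itga4* (13.1), *Itgam* (10.4), *Spp1* (6.3) and *Itgav* (5.01) to *Itgal*, and the ranges of each neighbouring pair from *Itgb2* to *Itgav* overlapped. In *Mboat7* ASKO mice on HFD, *Cd44* (41.2 FPKM) and *Itgax* (38.5) led these chains and overlapped each other. *Itgb2* (24.1 FPKM) followed without overlap with *Itgax*, and *Spp1* (20.0) stood above *Itga4* (12.8), *Itgam* (10.9) and *Itgav* (5.68), with overlap between neighbours.

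The mice on HFD also had more macrophage RNA, measured with 18 markers that include none of these genes. Of the 18, 9 rose with HFD in control mice and 12 in the *Mboat7* ASKO mice, against 1.81% and 2.13% of all tested genes. The medians of the 18 were 2.02 and 2.68, while *Mertk* had -0.57 and -0.68 and *Csf1r* had 0.41 and -0.43. The summed level of the 18 was 268 to 358 and 233 to 355 FPKM on chow and 928 to 1360 and 1160 to 1790 FPKM on HFD. *Adgre1*, a surface receptor of macrophages, was at 10.5 to 48.9 FPKM in control mice and 45.0 to 57.1 FPKM in *Mboat7* ASKO mice on HFD. None of the 18 passed between genotypes on HFD, and 16 had an estimate above 0, while those of *Csf1r* (-0.54) and *Mertk* (-0.21) were below 0. *C1qb* and *Gpnmb* were the 2 of 18 without overlap, both higher in *Mboat7* ASKO mice, against 1.69% of all genes. The mean log2(FPKM + 1) of the 18 was 4.79 to 5.21 in control mice and 5.24 to 5.63 in *Mboat7* ASKO mice on HFD, so this measure moved with genotype in the direction of *Spp1* and *Itgax*.

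Set against that mean in the same mouse, *Itgax* had differences of -1.79 to -0.44 on the log2 scale in control mice and -0.11 to -0.03 in *Mboat7* ASKO mice on HFD. For *Spp1* the differences were -2.58 to -1.64 in control mice and -1.43 to -0.76 in *Mboat7* ASKO mice. Neither pair of ranges overlapped, so both genes also stood higher relative to this mean in the ASKO group on HFD. For *Cd44* the differences were -1.23 to -0.29 and -0.34 to 0.63, and for *Itgam* they were -2.08 to -1.14 and -2.87 to -1.19, with overlap in both. *Itgb2* stood the other way round, with differences of -0.77 to -0.05 in control mice and -1.02 to -0.37 in *Mboat7* ASKO mice (medians -0.50 and -0.83), also with overlap. The markers behind the mean did not move together. On HFD *Gpnmb* was at 55.8 to 85.8 FPKM in control mice and 112 to 152 FPKM in *Mboat7* ASKO mice. *Csf1r* was at 43.2 to 87.2 and 29.2 to 43.9 FPKM in the same order. The *Spp1* values of the control mice stand for about 1.9 to 4.3 fragments. How many of all genes would separate the genotypes when set against this mean was not tested. The part of macrophage number in these results was not tested.

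**Figure D4:**
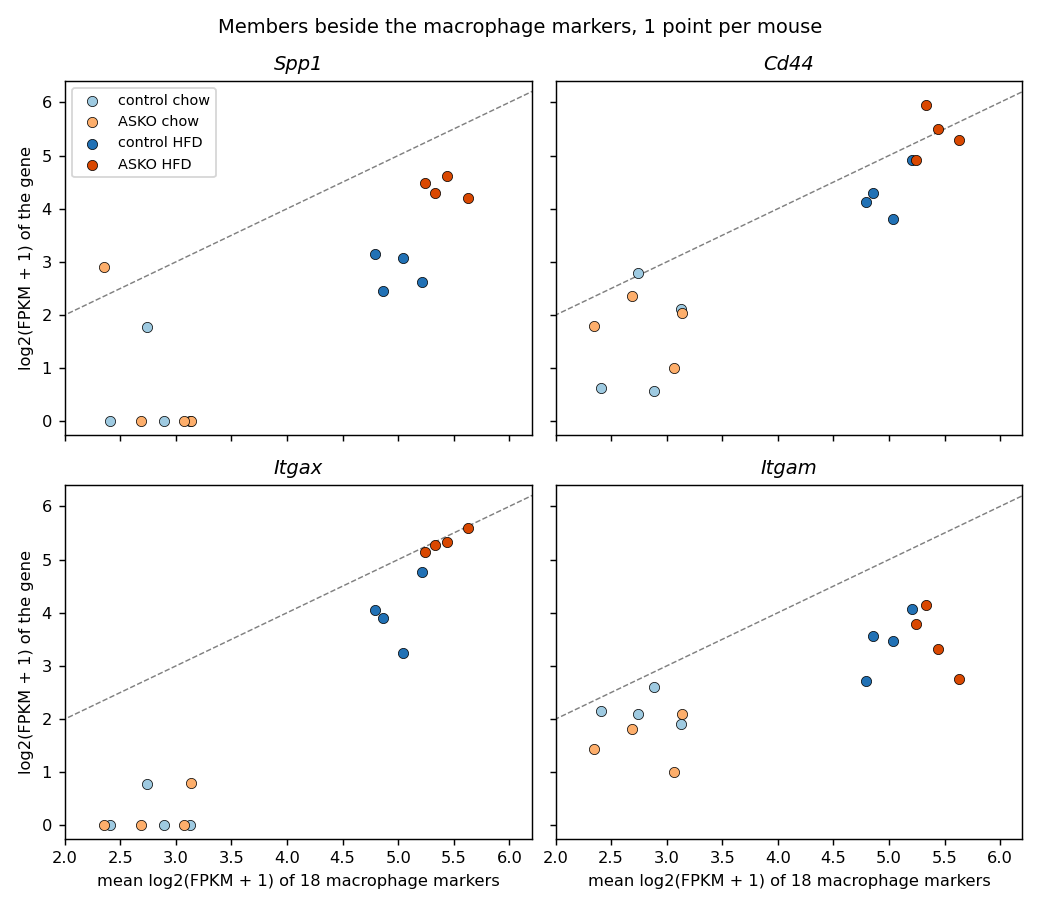
Level of *Spp1*, *Cd44*, *Itgax* and *Itgam* against the mean level of 18 macrophage markers, both as log2(FPKM + 1), with 1 point per mouse; the dashed line marks equal values. On HFD the points of *Itgax* in *Mboat7* ASKO mice lie close to the line (differences of -0.11 to -0.03), those of control mice lie farther below it (-1.79 to -0.44), and *Itgam* shows no such step.

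Many markers of lymphocytes and neutrophils were listed at 0 in most mice. *Cd3d* was listed at 0 in 15 of 16 mice, *Cd8a* in 15, *Nkg7* in 15, *S100a8* in 15 and *Csf3r* in 15, whereas *Lck* was at 0 in 11 mice, *Cd2* in 7 with up to 8.43 FPKM, and *Ighm* in none. The 6 listed T cell markers summed to at most 14.3 FPKM in any mouse, the 3 NK cell markers to at most 6.74 FPKM and the 3 neutrophil markers to at most 8.49 FPKM. Of the T cell markers 2 were tested, and neither passed in any comparison. No NK cell or neutrophil marker was expressed enough to be tested, so nothing is said of a change in those cells. The 6 B cell markers summed to between 9.95 and 90.2 FPKM, nearly all of it *Ighm*, with 39.7 to 90.2 FPKM in control mice and 9.95 to 40.2 FPKM in *Mboat7* ASKO mice on HFD. By flow cytometry the paper reports more T cells and B cells in *Mboat7* ASKO mice on HFD, which is a measure of cells and not of tissue RNA. Dendritic cell markers, which matter because dendritic cells also carry CD11c, summed to 33.8 to 70.4 FPKM in control mice and 22.5 to 51.5 FPKM in *Mboat7* ASKO mice on HFD, with none of 5 passing. The dendritic cell factor *Zbtb46* was listed at 0 in 9 of 16 mice and in all control mice on HFD, whereas *Xcr1*, a receptor of cross-presenting dendritic cells, was at 0 in 1 mouse and at 2.49 to 7.16 FPKM in control mice and 0.628 to 4.07 FPKM in *Mboat7* ASKO mice on HFD. *Clec9a*, another marker of those cells, had diet differences of 1.44 in control mice (limma adjusted p = 0.0904) and 0.46 in *Mboat7* ASKO mice (adjusted p = 0.694). Of the other marker lists, 1 of 2 mast cell and eosinophil markers rose in control mice, 1 of 9 adipocyte markers rose and 3 fell in control mice while 1 rose and 4 fell in *Mboat7* ASKO mice, 1 of 6 mesothelial markers fell in control mice, and none of 7 progenitor, 5 endothelial and 1 muscle marker passed. The epididymis marker *Adam7* was listed at 0 in 15 of 16 mice.

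Few of the other integrin subunits and ligands passed the test. Of 19 other subunits, 17 were listed, 6 were tested and none passed. Of 4 other secreted phosphoproteins of the osteopontin family, 1 was listed, at no more than 1.29 FPKM. *Itgb3* and *Itgb5*, the β chains that pair with αv to bind osteopontin, differed with HFD by 0.11 and 0.12 in control mice and by -0.17 and 0.86 in *Mboat7* ASKO mice (limma adjusted p between 0.468 and 0.968), and *Itgb7*, a β chain of α4, was listed at 0 in all control mice on HFD and in 3 of 4 mice of each other group. Of 19 tested integrin ligands, 1 rose in control mice and 2 in the *Mboat7* ASKO mice: *Mfge8*, a bridge between dying cells and αv integrins (2.27, limma adjusted p = 0.00313, and 1.47, adjusted p = 0.0498), and *Postn*, a matrix protein (1.5 in *Mboat7* ASKO mice, limma adjusted p = 0.0348). The median of the ligands was 0.23 and 0.56. *Icam1*, the ligand of LFA-1 and CD11b, and *Vcam1*, the ligand of α4, had differences of 0.95 and 1.11 in control mice and 1.25 and 0.88 in *Mboat7* ASKO mice, and *Fn1*, fibronectin, had 0.64 and 0.54, none of which passed.

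Among the proteases known to cut osteopontin, *Mmp12*, the macrophage elastase, rose by 5.62 in control mice (limma adjusted p = 5.84e-05) and by 6.46 in *Mboat7* ASKO mice (limma adjusted p = 1.38e-05), more than any of the 8 genes. *Mmp3*, stromelysin, was listed at 0 in all 8 chow mice and at 1.2 to 6.37 FPKM on HFD, so it entered the tests through its HFD mice alone. Its differences of 1.64 and 2.12 with HFD (limma adjusted p = 0.0413 and 0.00737) rest on low values in those mice. *Mmp9*, a gelatinase, was listed at 1.21, 1.15, 3.88 and 1.19 FPKM in the *Mboat7* ASKO mice on chow and at 0 in the other 12 mice. It entered the tests through those 4 mice alone, so its difference of -1.42 with HFD in *Mboat7* ASKO mice (limma adjusted p = 0.0136) rests on low values in 1 group. The other 3 tested proteases did not pass. Of 12 tested genes of hyaluronan metabolism and CD44 partners, 1 passed, *Mmp14*, a membrane protease that sheds CD44, which rose by 2.42 in *Mboat7* ASKO mice (limma adjusted p = 0.0187). This rests on low chow values in that genotype, 1.6, 0, 1.02 and 0 FPKM, where control mice on chow had 2.52, 1.56, 3.93 and 9.05 FPKM. On HFD the ranges were alike, 3.39 to 10.3 FPKM in control mice and 3.32 to 10.3 FPKM in *Mboat7* ASKO mice. The medians of the 12 genes were 0.20 and 0.65.

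Among 23 tested genes that activate integrins or carry their signals, those that rose in *Mboat7* ASKO mice included *Syk* (2.14), *Fyb* (2.08) and *Skap2* (1.65), with limma adjusted p of 0.0355, 0.0479 and 0.0416. *Syk* is a kinase of myeloid cells, and *Skap2* and *Fyb* are adaptors that take part in signalling to β2 integrins. In control mice the estimates of *Syk* (1.54), *Fyb* (1.71) and *Skap2* (0.72) were also above 0 and did not pass (limma adjusted p = 0.168, 0.124 and 0.499). None of the 23 passed as higher there, and 1 passed as lower, *Fermt2* (limma adjusted p = 0.0151), the kindlin of non-leukocytes, which fell by 1.59. None of the members of these lists passed between genotypes on either diet or in the interaction.

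The genes whose centred profiles over the 16 mice were nearest to *Itgax* were *Mpeg1*, *Rfc2*, *Gm29439*, *Rgs18* and *Adam8*, with root mean square differences of 0.64 to 0.74 on the log2 scale, beside a spread of 2.31 in *Itgax* itself. For *Cd44* they were *Mpeg1*, *Clec7a*, *Cd300ld*, *Slc5a7* and *Lum* (0.51 to 0.70, own spread 1.76), and for *Spp1* they were *Lcp1*, *Krr1*, *Htr2b*, *Rgs1* and *Slfn2* (0.74 to 0.80, own spread 1.78). Among all tested genes *Cd44* ranked number 10 for *Spp1* and number 13 for *Itgax*, *Itgax* ranked number 27 for *Cd44*, and *Itgb1* ranked number 1957 for *Spp1*, 2772 for *Cd44* and 2751 for *Itgax*. Within the 8 HFD mice, *Itgax* ranked number 15 for *Cd44* (difference 0.33) and *Cd44* number 14 for *Itgax*. *Spp1* ranked farther from them there than over all 16 mice, with *Cd44* number 205 and *Itgax* number 146 for *Spp1*, and *Spp1* number 841 for *Cd44* and 327 for *Itgax*, while *Itgam* was farther from *Itgax* (0.89) than the own spread of *Itgax* (0.78). The points share libraries and depth, and no test was made.

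Promoter sequence was found in the RefSeq set (GRCm38.p6, 300 bases around each start) for 7 of the 9 genes, and it was searched on both strands for letters that myeloid and general factors are known to bind. The promoters of the 3 genes with the largest differences between genotypes on HFD are shown, with matches in capitals. In *Spp1* (plus strand, chr5:104434861-104435160), reading from 5′ to 3′, these are TATAAA, the RUNX letters AACCACA, the PU.1 letters GAGGAAGT and ATTGG, the reverse complement of CCAAT. In *Itgax* (plus strand, chr7:128129300-128129599) they are ATTGG and the AP-1 letters TGAGTCA. The *Cd44* promoter (minus strand, chr2:102901616-102901915) had no match.
Spp1: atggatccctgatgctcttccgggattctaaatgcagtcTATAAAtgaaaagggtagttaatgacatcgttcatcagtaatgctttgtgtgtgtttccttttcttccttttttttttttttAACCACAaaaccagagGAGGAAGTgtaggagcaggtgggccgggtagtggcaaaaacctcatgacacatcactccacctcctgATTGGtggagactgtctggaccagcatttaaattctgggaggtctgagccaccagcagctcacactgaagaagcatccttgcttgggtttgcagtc
Itgax: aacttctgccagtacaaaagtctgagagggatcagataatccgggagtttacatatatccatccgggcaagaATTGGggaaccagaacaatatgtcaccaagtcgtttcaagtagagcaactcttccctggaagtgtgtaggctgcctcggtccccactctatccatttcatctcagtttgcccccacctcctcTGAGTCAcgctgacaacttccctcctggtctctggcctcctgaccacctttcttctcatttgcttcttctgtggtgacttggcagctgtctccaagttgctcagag
Cd44: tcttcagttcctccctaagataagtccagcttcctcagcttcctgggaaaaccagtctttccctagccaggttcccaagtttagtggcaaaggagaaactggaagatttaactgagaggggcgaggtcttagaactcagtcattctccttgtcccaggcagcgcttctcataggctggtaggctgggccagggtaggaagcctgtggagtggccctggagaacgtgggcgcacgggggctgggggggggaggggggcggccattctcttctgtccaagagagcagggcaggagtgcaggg

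The PU.1 letters GAGGAAGT were in 2 of the 7 promoters (*Spp1* and *Itgav*), beside 3.2% of 32851 mouse promoters of the same length, and the AP-1 letters TGANTCA were in 1 (*Itgax*), beside 7.81%. The RUNX letters AACCACA were in 1 (*Spp1*, 5.27% of all promoters), CCAAT was in 2 (37.4%), TATAAA was in 1 (13.6%) and the E-box CACGTG was in none (7.15%). In *Spp1* the PU.1 letters began 113 bases and the RUNX letters 129 bases before the start, and in *Itgax* the AP-1 letters began 56 bases before it. The matches do not overlap one another, and they describe letters and not binding.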

How the data were processed

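RNA of gWAT from 16 mice was sequenced from directional mRNA libraries. The authors deposited FPKM values per gene and mouse, which Cufflinks made from trimmed reads after alignment by STAR to mm10 with the GENCODE annotation. The tool names come from the submitters' processing notes and the methods. The library scaling and the use of strand are not given in the sources used here. The highest row of a repeated name was used, and 99.57% of 19373 identifiers were found in GENCODE M21.

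FPKM were tested as log2(FPKM + 1) with limma 3.58.1 (R 4.3.3) and the intensity trend, in the 13148 genes that reached 1 FPKM in 4 or more mice. All 4 groups shared a fit, and the Benjamini-Hochberg adjustment was made over all tested genes of a comparison. A gene passed with an adjusted p under 0.05 and a log2 fold change beyond 0.5 in size. *Mboat7* was compared with exact permutation tests, for which the smallest p of 4 against 4 mice is 0.0286. The test was checked on simulated data. Replicates are separate mice by the labels. Low FPKM values gave an estimate of depth by their steps. The 95% intervals are limma confidence intervals for a difference of group means, computed from the spread between mice.

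The 9 genes, the gene lists and the tests were chosen with earlier results of these data known. Named were the 9 genes, *Mboat7*, the partner chains and ligands *Itgb3*, *Itgb5*, *Itgb7*, *Itgad*, *Icam1*, *Vcam1* and *Fn1*, up to 3 passing genes with the largest change per list and comparison, and the 5 nearest profiles of *Spp1*, *Cd44* and *Itgax*. *Skap2*, *Clec9a* and the defining markers of cell types were named outside this rule, after their values were seen. Python 3.11.15 was used with numpy 2.4.6, pandas 2.3.3 and, for plots, matplotlib 3.10.9. Results of some genes on the lists are not reported here. The alternatives tried are given at the end.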

Additional observations from a re-analysis of the deposited data

Results flagged for a closer look

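In groups of 4 mice, a value was singled out where its gap to the nearest other mouse, divided by the range of the group, was above Dixon's critical value for 4 samples. This happened in 5 of 38 groups of 4 examined, where chance gives about 1 in 20 (1.9 groups). In each case 1 mouse was above 0 and the other 3 were listed at 0, which gives a ratio of 1 by construction, so the chance rate does not apply to these groups and nothing is read from their number. On chow, *Spp1* reached 2.44 FPKM in control mouse 0 and 6.44 FPKM in mouse 0 of the *Mboat7* ASKO group. *Itgax* reached 0.723 FPKM in control mouse 0 and 0.741 FPKM in mouse 1 of the *Mboat7* ASKO group. On HFD, *Itgal* reached 1.28 FPKM in mouse 0 of the *Mboat7* ASKO group. By the step of each mouse these values stand for about 0.99 and 2.1 fragments of *Spp1*, 0.84 and 0.92 fragments of *Itgax* and 2.3 fragments of *Itgal*.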

How the results depend on the processing

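The number of genes passing with HFD went from 383 to 255 in control mice and from 451 to 265 in *Mboat7* ASKO mice when the fit held the groups compared alone, and so fewer mice, and to 231 in control mice without control mouse 1 and *Mboat7* ASKO mouse 3 on HFD together (chosen after seeing the data). Leaving out 1 mouse at a time gave 255 to 421 and 265 to 493 genes. Upper-quartile scaling moved the median of all genes in *Mboat7* ASKO mice from 0.03 to 0.17 and the genes that rose from 280 of 451 to 352 of 452. Between genotypes on HFD, 1 gene became 2 with no filter and 0 with a filter of 5 FPKM, only the groups compared, the replicate number as a block or without both mice, and 0 to 3 without single mice. On chow 1 became 2 with no filter and 0 with a filter of 5 FPKM, either other scaling or the replicate block, and 0 to 4 without single mice. The interaction gave 1 gene without both mice and 0 to 1 without single mice. The cause was not tested. Mice with the same number are different animals, and their deviations did not run together (correlations of -0.05 to 0.15), and the block changed no call among the 9 genes.

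*Spp1* in control mice lost its call with a pseudocount of 0.1 (adjusted p = 0.0734), no filter (0.0715), only the groups compared (0.0672) and without both mice (0.118). *Itgb2* in control mice and *Itgam* in *Mboat7* ASKO mice lost theirs with only the groups compared (0.0562 and 0.081). *Itgb2* also lost it with a pseudocount of 0.1 (0.0846) and without both mice (0.0647). The diet calls of *Cd44* and *Itgax* in both genotypes, and of *Spp1* and *Itgb2* in *Mboat7* ASKO mice, held in every setting tried. Without single mice, estimates between genotypes on HFD changed sign, from -0.2008 to 0.2946 for *Itgam*, -0.04064 to 0.3362 for *Itgb2*, -0.01948 to 0.288 for *Itgav* and -0.02602 to 0.4868 for *Itga4*, and the diet difference of *Itgb1* in control mice ran from -0.3661 to 0.0009733. *Mboat7* ran from -0.3932 to 0.2759 on HFD and from -1.504 to -0.8517 on chow. Few fragments limit low values, and for a short transcript such as that of *Spp1* also values of 17.4 to 23.4 FPKM (about 8.7 to 12 fragments).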

Other observations

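The name *Itgam* stands on a second row, ENSMUSG00000108596.1, which GENCODE M21 calls *Gm49368* and places on the plus strand of chromosome 7 of GRCm38 from 128062683 to 128128160. It was listed at 0 in 15 mice and at 0.731 FPKM in *Mboat7* ASKO mouse 2 on HFD, and its exons overlap those of *Itgam* on the same strand. In the deposited table the row used for *Itgam* ends at 128128160, the end of *Gm49368*, and not at 128118491, where GENCODE M21 ends *Itgam*. The deposited rows of *Itgad* (128154019 to 128206387) and *Itgb2* (which ends at 77565686) also differ from the GENCODE M21 positions given above. The sum of the 4 β2 α chains over *Itgb2* in the same mouse was 0.788, 1.27, 1.53 and 1.56 in control mice and 1.51, 2.4, 2.8 and 2.15 in *Mboat7* ASKO mice on HFD. Within the 8 HFD mice, the profiles nearest to *Itgax* were those of *Xpo5*, *Cd68*, *Tk2*, *Lipa* and *Tlr13*, with root mean square differences of 0.21 to 0.25 on the log2 scale. Those nearest to *Cd44* were *Lrp12*, *Aldh1a7*, *Lipa*, *Fam171a1* and *Vwa9* (0.26 to 0.28), and those nearest to *Spp1* were *Gm16262*, *Slc10a3*, *A330041J22Rik*, *Hsd3b7* and *Zfp768* (0.26 to 0.31). *Lipa*, which encodes lysosomal acid lipase, was among the 5 nearest of both *Itgax* and *Cd44*. These are descriptions over few mice.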
